A study of Arabidopsis thaliana with 8 samples.

Results

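TCF1 (AT3G55580), an RCC1-repeat gene known as a regulator of freezing tolerance, and BCB, a blue-copper-binding protein gene, were followed through a week of cold in Arabidopsis thaliana. They correspond to 2 probe sets of 22810 on the Affymetrix ATH1 array. TCF1 is measured by probe set 251793_at, the only one that the platform's probe annotation pairs with it. BCB was taken as probe set 246099_at, which that annotation does not list, so its identity as AT5G20230 rests on the choice of the member and was not checked against a table here. Both were chosen with their signals known. TCF1 was selected on its signal at 24 h against 0 h, and BCB was taken as its known target with its signals on all arrays in view. Their levels are therefore a description, with standard errors and no test.

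The 8 arrays hold RNA from whole Col-0 plants, 2 arrays at each of 0 h, 1 h, 24 h and 7 days at 4 °C. No mutant or transgene is named in the labels. Plants grew on plates at 24 °C in continuous light of 100 µmol per square metre per second, from seed stratified in the cold for 4 days, and were 10 days old when treatment began. The 0 h plants were harvested under these conditions, whereas plates moved to 4 °C stood in about 25 µmol per square metre per second according to the treatment protocol, although the sample descriptions give 100 for every array. If the protocol holds, cold and dimmer light cannot be told apart. Cold and age at 7 days cannot be told apart either. In whole plants, fewer cells of a type and less RNA per cell cannot be told apart.

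TCF1 is a nuclear protein of the family named after RCC1, a chromatin-bound protein with a propeller of repeats. In Arabidopsis it is known to be induced by cold, to bind histones and to associate with chromatin at BCB, and plants that lack it make less BCB transcript and less lignin and tolerate freezing better. BCB is a copper-binding protein anchored to the outer face of the plasma membrane, with transcripts known to accumulate under aluminium and oxidative stress. Lignin is the phenolic polymer of secondary cell walls: enzymes in the cell make its alcohol precursors (monolignols), and laccases and peroxidases in the wall join them.

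TCF1 was low before cold and far higher after a day and after a week. Its signal, on the linear MAS5 scale (trimmed mean near 100 on every array), was 7.73 and 2.38 at 0 h, 13.9 and 15.9 at 1 h, 299 and 277 at 24 h, and 280 and 200 at 7 days. Both arrays at 24 h and both at 7 days stood above every 0 h and 1 h array, while the 24 h and 7-day arrays overlapped. The group means were 5.05 ± 3.78 at 0 h, 14.9 ± 1.38 at 1 h, 288 ± 15.6 at 24 h and 240 ± 56.7 at 7 days (SD, n = 2 each), so that 24 h was highest and 7 days next. The difference between these neighbours was smaller than the SD at 7 days.

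On the log2(signal + 8) scale, TCF1 was higher than at 0 h by 0.84 ± 0.25 at 1 h, by 4.53 ± 0.25 at 24 h and by 4.26 ± 0.25 at 7 days (SE, limma). The step from 1 h to 24 h was 3.69 ± 0.25, and 7 days differed from 24 h by -0.28 ± 0.25. On this scale 93.9% of the 24 h difference was present at 7 days, and 18.6% of it at 1 h.

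The size of these differences depends on how low signals are treated. TCF1 lay under the 40th percentile of its array (signals of 23.1 to 28) on all 4 arrays at 0 h and 1 h, and it entered the test only through its 4 arrays at 24 h and 7 days. The ratio of mean signals was 57.1 for 24 h over 0 h, whereas the fold on the log2(signal + 8) scale was 23.2, and the log2 difference became 5.73 with a pseudocount of 1 and 3.12 with one 4 times larger than the main value. The difference at 1 h was 1.55 and 0.34 under these settings. No detection calls were used here, and whether the 0 h and 1 h signals exceed background is not known.

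BCB was measured above the dim end of every array, and its differences were smaller than those of TCF1 at 24 h and 7 days. Its signal was 174 and 242 at 0 h, 335 and 425 at 1 h, 683 and 541 at 24 h, and 332 and 309 at 7 days. Each cold array was above both 0 h arrays, and the 24 h arrays were above all others. The means were 208 ± 48.3 at 0 h, 380 ± 63.8 at 1 h, 612 ± 100.0 at 24 h and 321 ± 16.4 at 7 days (SD, n = 2 each). The levels thus ranked 24 h, 1 h, 7 days and 0 h, and the neighbouring 1 h and 7-day means differed by less than the SD at 1 h.

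**Figure D1:**
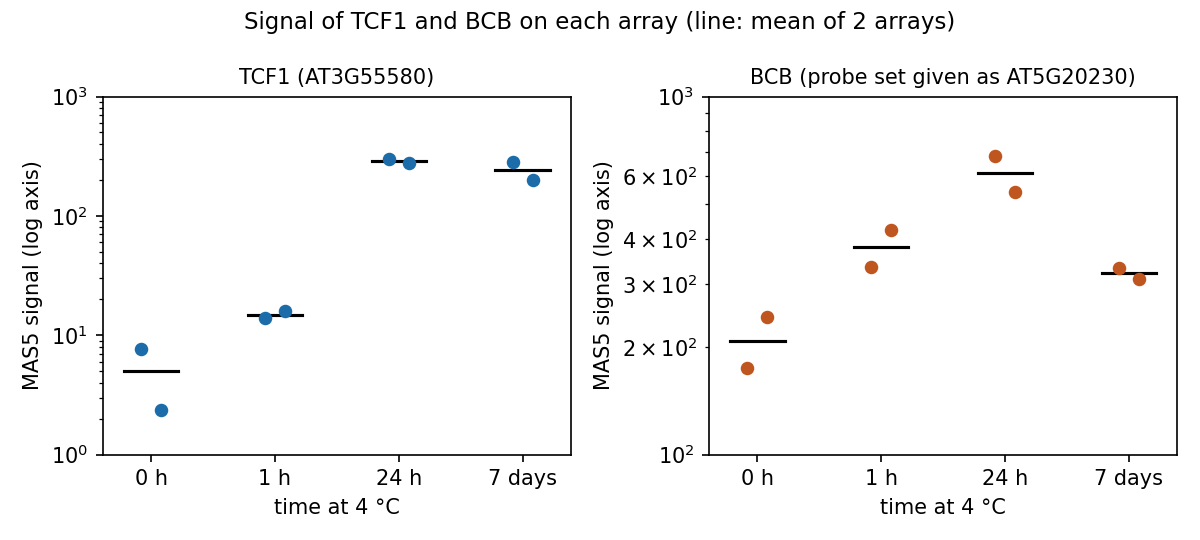
MAS5 signal (log axis) of TCF1 (left) and BCB (right) against time at 4 °C, with a point for each of 2 arrays and a line at their mean. TCF1 lies between 2.38 and 15.9 at 0 h and 1 h and between 200 and 299 at 24 h and 7 days, whereas BCB is highest at 24 h (683 and 541) and between 309 and 332 at 7 days.

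Against 0 h, BCB was higher by 0.86 ± 0.22 at 1 h, 1.53 ± 0.22 at 24 h and 0.62 ± 0.22 at 7 days (log2, SE). Unlike TCF1, it had 55.9% of its 24 h difference at 1 h and 40.7% of it at 7 days, and 7 days stood below 24 h by a log2 difference of -0.91 ± 0.22. BCB was on all 8 arrays above the 40th percentile, and a pseudocount of 1 gave 1.56 at 24 h. Of the 15017 probe sets tested, 391 had a larger rise at 24 h and 1804 at 7 days, which are 2.6% and 12% of those tested.

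Set side by side, the time courses shared their direction against 0 h but not their shape. At 1 h the log2 differences were 0.84 for TCF1 and 0.86 for BCB, at 24 h 4.53 and 1.53, and at 7 days 4.26 and 0.62. All these values share the same 0 h arrays. The closeness of the 1 h values depends on the pseudocount. With a pseudocount of 1, TCF1 was at 1.55 and BCB at 0.88 at 1 h. With 4 times the main value they were at 0.34 and 0.79. TCF1 stayed near its 24 h level at 7 days with overlapping arrays, and the BCB arrays at 7 days lay below those at 24 h without overlap. Groups of 2 arrays separate often by this measure: over all tested probe sets, arrays did not overlap and were higher for 16% at 1 h, 27.4% at 24 h and 26.9% at 7 days against 0 h, higher for 27.5% at 24 h against 1 h, and lower for 25.5% at 7 days against 24 h.

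Replicate arrays correlated at 0.956 to 0.972 across tested probe sets. RNA integrity was read from the actin and GAPDH controls, as signal at the 3' end over that at the 5' end. The actin ratio was 3.84 and 2.95 at 0 h, 5.32 and 3.95 at 1 h, 6.53 and 3.44 at 24 h, and 3.83 and 5.91 at 7 days. The GAPDH ratio was 1.22 to 1.45 over the 8 arrays and did not follow that of actin. The 24 h array with the actin ratio of 6.53 (GAPDH 1.30) had the higher TCF1 and BCB signals of its group. The 7-day array with the actin ratio of 5.91 (GAPDH 1.24) had the lower ones. The part of RNA integrity in the members' values was not tested. Genes were looked up in the probe annotation used here, which does not list 8730 of 22746 probe sets, that of BCB among them, so a gene not found in it may still be on the array. Of the markers for the tissues of a whole plant, 1 of 6 leaf and 3 of 6 root genes were named in the annotation and all were tested, and 0 of 6 xylem markers were named. The leaf antenna gene LHCB4.2 had signals of 1400 to 3970 and the root gene PYK10 731 to 2370 over the 8 arrays, and the root hair expansin genes EXPA7 and EXPA18 19.5 to 65. LHCB4.2 fell at 24 h (-1.02, adjusted p = 0.0078). PYK10 fell at 24 h (-0.81, adjusted p = 0.0406, and 0.0516 to 0.329 under the 9 alternatives that ended this call) and at 7 days (-1.40, adjusted p = 0.00386), whereas EXPA7 and EXPA18 were at -0.35 and 0.38 at 7 days (adjusted p = 0.419 and 0.387). The LHCB4.2 call was lost when either 24 h replicate 1 was left out (adjusted p = 0.0592) or, in its place, 0 h replicate 2 (0.052). The part of tissue proportions in the members' values was not tested.

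The genes most like each member in time course were found among the probe sets paired with a single gene. For TCF1, the highest Pearson correlations of log2 signal over the 8 arrays, among 284 genes with group means spanning at least 2 log2 units, were those of the dehydrin gene LTI30 (0.989), AT1G80130 (0.987), AT1G69570 (0.985), AT1G24575 (0.981) and the sugar transporter gene SWEET13 (0.977). These values describe 8 arrays that fall into a low and a high set for TCF1, and such a split alone can give a high correlation. AT1G80130 and LTI30 were also the closest in the size of change among 8124 genes, with root mean square distances from TCF1 of 0.439 and 0.442 over the 3 log2 differences against 0 h. Next were AT4G30650 (0.945), COR15B, a cold-regulated chloroplast protein gene (0.985), and XTH20, a xyloglucan-modifying enzyme gene (1.00).

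AT1G80130 had signals of 55 and 37.5 at 0 h, 64.4 and 52.6 at 1 h, 1340 and 1490 at 24 h, and 1290 and 1620 at 7 days. Like TCF1 it was high on all 4 arrays at 24 h and 7 days, with log2 differences from 0 h of 4.73 and 4.76. LTI30 was at 5420 and 5120 at 24 h and at 2520 and 2400 at 7 days, so its 7-day arrays lay below the 24 h ones, where those of TCF1 overlapped.

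For BCB, the highest correlations among the same 284 genes were those of AT5G17850 (0.96), AT4G36010 (0.959), AT5G46710 (0.948), the thionin gene THI2.2 (0.898) and AT1G76580 (0.885). BCB itself spans less than the 2 log2 units asked of these genes, so genes with changes of its own size were not among them, and the log2 differences of the 5 at 24 h were 2.13 to 3.29. The closest to BCB in size of change, with no limit on span, were AT2G36220 (distance 0.0748), AT4G16563 (0.175), AT2G06040 (0.197), the DnaJ-like gene ATJ1 (0.199) and AT3G12900 (0.224). AT2G36220 had signals of 40 and 64.3 at 0 h, 74.4 and 123 at 1 h, 135 and 192 at 24 h, and 81.4 and 69.7 at 7 days, the same order of group means as BCB. No gene was on the lists of both members, by either measure.

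**Figure D2:**
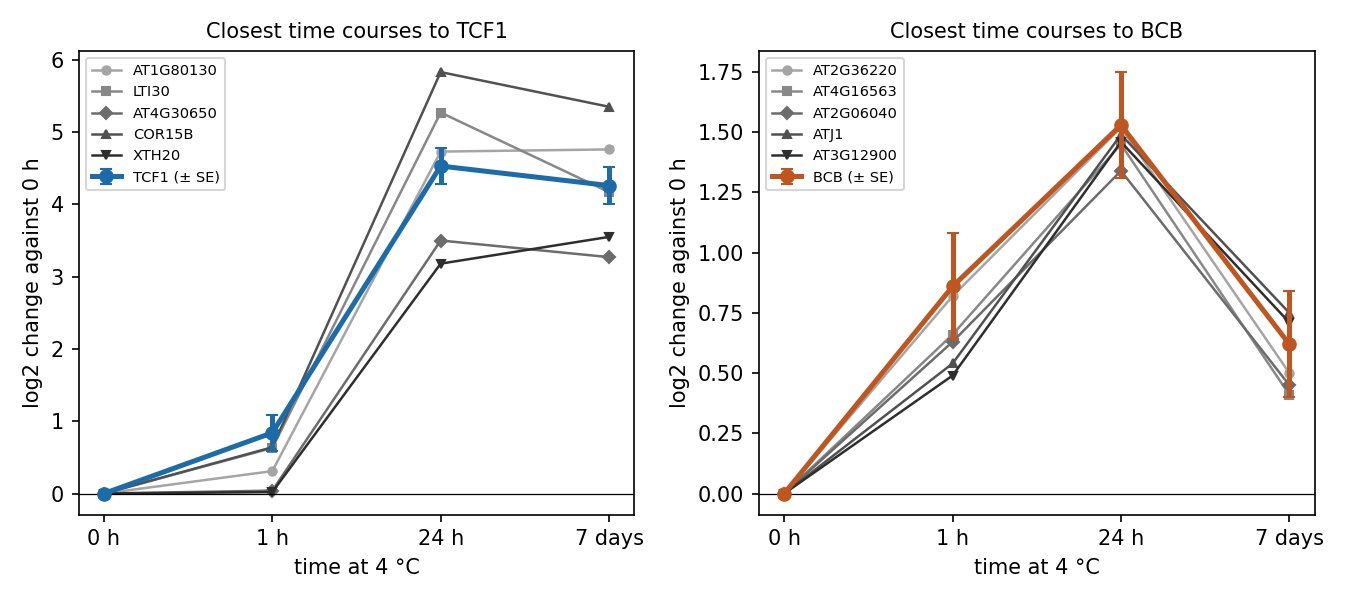
Log2 change against 0 h over time at 4 °C for TCF1 (left) and BCB (right; coloured, ± SE) and for the 5 genes closest to each in size of change (grey). The TCF1 set stays between 3.27 and 5.35 at 7 days, and the BCB set peaks at 24 h between 1.34 and 1.52 and is between 0.41 and 0.75 at 7 days.

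The other RCC1-repeat genes tested changed in both directions. Against 0 h they changed by less than TCF1, as its selection on the 24 h signal makes likely. Of 21 such genes listed besides TCF1, 14 were paired with a probe set of their own in the annotation used and 10 passed the filter on dim probe sets. At 24 h, 3 of these 10 rose and 2 fell, where 27.1% of all tested probe sets were called (11.8% higher and 15.3% lower). The count of 5 was 3 without 0 h replicate 1 or 0 h replicate 2 and 2 without 24 h replicate 1. The median log2 change of the 10 was 0.14, and that of all tested probe sets -0.06. AT5G16040 rose: its signal was 206 and 267 at 24 h, against 61.1 and 46.4 at 0 h, a log2 change of 1.99 (limma adjusted p = 0.000498). AT3G26100 fell, with 36.2 and 43.9 at 24 h, against 130 and 139 at 0 h (-1.57, adjusted p = 0.00018).

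The same 2 genes were called at 7 days, with AT5G16040 at 158 and 251 (1.76, adjusted p = 0.00171) and AT3G26100 at 56.6 and 49.7 (-1.22, adjusted p = 0.00148). AT3G02300 fell at 24 h (-0.96, adjusted p = 0.00924) and at 7 days (-0.91, adjusted p = 0.0162). In all, 1 of the 10 rose and 2 fell at 7 days, where 19.9% of tested probe sets were called (9.18% higher and 10.7% lower). AT1G19880 rose at 24 h (0.76, adjusted p = 0.0152), as did AT3G15430 (0.64, adjusted p = 0.0274), which was also higher at 24 h than at 1 h (1.06, adjusted p = 0.0018), a call made higher for 11.3% of tested probe sets. The calls of AT3G02300 and AT1G19880 at 24 h ended without 24 h replicate 1 (adjusted p = 0.0624 and 0.0676) and without 1 of the 0 h arrays (0.0651 without replicate 1 for AT3G02300 and 0.0995 without replicate 2 for AT1G19880). The AT3G15430 call at 24 h against 0 h, a smaller change than the naming rule takes in and named after its value was seen, ended whichever array at 0 h or 24 h was left out (adjusted p = 0.0559 to 0.131). The call of AT3G02300 at 7 days ended without 0 h replicate 1 (0.0999), 7-day replicate 1 (0.0826) or 7-day replicate 2 (0.0613).

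PRAF1, which combines RCC1 repeats with a lipid-binding domain, and its relatives AT5G19420, AT5G12350 and AT5G42140 were between -0.07 and 0.26 at 24 h (adjusted p = 0.432 to 0.861). At 1 h, limma called 0 of the 10 genes (1 at an unadjusted p under 0.05), where 0.32% of all tested probe sets were called (0.313% higher). Between 7 days and 24 h it also called 0 of 10 (1 at an unadjusted p under 0.05), where 9.3% were called (4.83% higher and 4.46% lower).

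Of 19 listed genes of the blue copper (phytocyanin) family, to which BCB belongs, 7 were paired with a probe set of their own in the annotation used and 5 were tested. At 24 h limma called 0 of 5, with 0 also at an unadjusted p under 0.05, where 27.1% of all tested probe sets were called, and the log2 changes ran from 0.09 to 0.66. Without 0 h replicate 2, 1 of the 5 was called. At 7 days 1 of 5 rose, where 9.18% of tested probe sets were called higher: ARPN, the gene of the secreted copper protein plantacyanin, had 218 and 188 at 7 days, against 125 and 71 at 0 h (1.04, adjusted p = 0.022). The ARPN mean was thus highest at 7 days, when BCB was lower than at 24 h. The ARPN difference between 7 days and 24 h did not pass (0.68, limma adjusted p = 0.151). The ARPN call ended without the filter on dim probe sets (adjusted p = 0.0512) and without 0 h replicate 2 (0.169), 7-day replicate 1 (0.116) or 7-day replicate 2 (0.0756).

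The tested genes for enzymes of lignin synthesis fell or did not pass the test against 0 h. Of 30 listed monolignol enzyme genes, 4 were paired with a probe set of their own in the annotation used and 2 were tested. HCT, whose product moves hydroxycinnamoyl groups onto shikimate on the way to most monolignols, had 791 and 686 at 0 h, 438 and 421 at 24 h, and 408 and 304 at 7 days. All 4 of these 24 h and 7-day arrays were below both 0 h arrays, as was the case for 33.9% of tested probe sets at 24 h and 33% at 7 days. HCT fell by 0.77 at 24 h (adjusted p = 0.0181) and by 1.05 at 7 days (adjusted p = 0.00516) on the log2 scale. ALDH2C4, an aldehyde dehydrogenase gene that yields ferulate and sinapate, lay between 546 and 643 on all arrays and was at -0.10 at 24 h (adjusted p = 0.708). The HCT call at 24 h ended without 0 h replicate 1 (adjusted p = 0.103), 24 h replicate 1 (0.0555) or 24 h replicate 2 (0.0796), and at 7 days without 7-day replicate 2 (0.0541).

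Of 28 genes for laccases, peroxidases and wall scaffold proteins of lignin assembly, 7 were so paired and 5, all peroxidases, were tested. At 24 h 3 of 5 fell and none rose, where 15.3% of tested probe sets were called lower: PRX25 (-1.18, adjusted p = 0.0122), PRX71 (-1.14, adjusted p = 0.013) and PRX17 (-0.88, adjusted p = 0.0183). Their median was -0.88, that of all tested probe sets -0.06. Without 24 h replicate 1 or without 0 h replicate 1 the count was 1 of 5, and each of the 3 calls ended with 2 of the arrays at 0 h and 24 h left out in turn (adjusted p = 0.0544 to 0.134). PRX66 (AT5G51890) did not pass at 24 h but fell at 7 days, with 47.5 and 33.8 at 7 days, against 141 and 228 at 0 h (-1.96, adjusted p = 0.000526), the 1 call of the 5 at that time, when 10.7% of tested probe sets were called lower. Between 7 days and 24 h, 1 of the 5 rose and 1 fell, where 4.83% of tested probe sets were called higher and 4.46% lower. PRX66 was the one that fell, from 134 and 173 at 24 h (-1.74, limma adjusted p = 0.00278). PRX71 had 66 and 59.5 at 24 h and was higher at 7 days, with 246 and 112 (1.30, adjusted p = 0.0191), a call that ended without 7-day replicate 1 (0.76, adjusted p = 0.124), 24 h replicate 1 (adjusted p = 0.0613) or 24 h replicate 2 (0.0901). Names of the 21 listed lignin transcription regulators and of the phenylalanine ammonia-lyase genes were not found in the annotation used, and these genes are not analysed here.

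**Figure D3:**
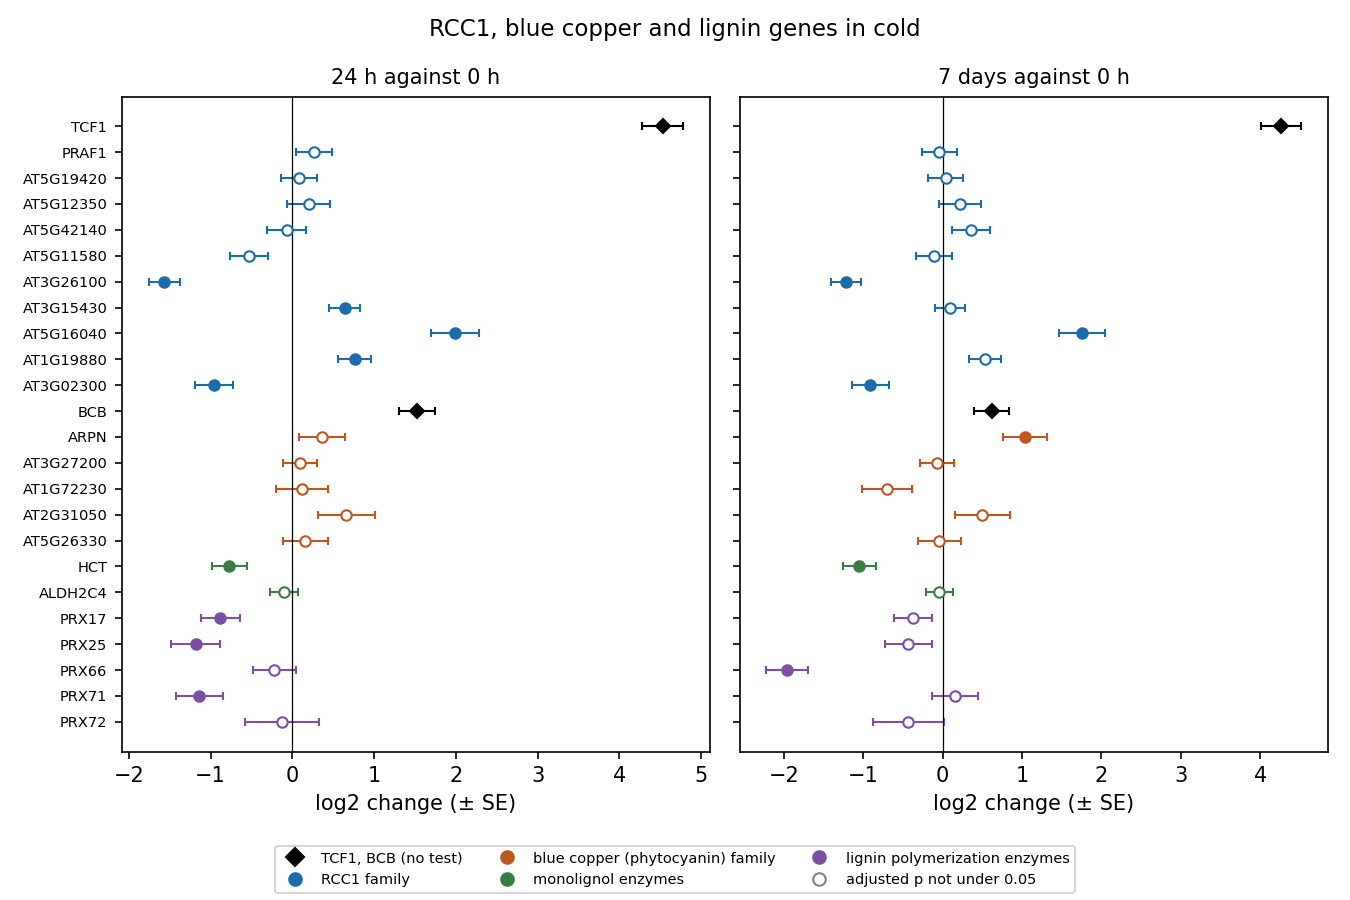
Log2 change (± SE) at 24 h (left) and 7 days (right) against 0 h for TCF1, BCB, their relatives and lignin enzyme genes; filled circles passed an adjusted p of 0.05, open circles did not, and diamonds (TCF1, BCB) carry no test. Among the RCC1 genes AT5G16040 is at 1.99 and AT3G26100 at -1.57 at 24 h, and the filled circles of the lignin genes lie below 0 in both panels.

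Beside these, 9 of 27 listed cold and freezing genes were named in the annotation used and tested. This list was chosen with earlier results of these data known, so its counts beside those of all tested probe sets are a description. All 9 rose at 24 h, where 11.8% of tested probe sets were called higher, and at 7 days, where 9.18% were. The COR27 call at 7 days ended without the filter on dim probe sets (limma adjusted p = 0.0534). With 1 array left out, the 7-day log2 change ranged over 1.56 to 2.92 for COR27 and 1.32 to 2.88 for GI. Both calls ended under some of these settings, and they were not the only 7-day calls of the 9 to end so. The highest adjusted p of the 9 at 7 days was that of COR28 (log2 change 1.29, limma adjusted p = 0.043). At 1 h 1 of the 9, the zinc finger gene STZ, was called, where 0.313% were called higher, and 2 were without 1 h replicate 1. Of the 9, COR15A, COR15B and LTI30 had log2 changes at 24 h above the 4.53 of TCF1, and COR15A and COR15B had changes at 7 days above its 4.26. This order depends on the scale: by the ratio of mean signals TCF1, at 57.1, stood above LTI30 (37.9) at 24 h, and TCF1, at 47.5, stood above COR15B (44.9) at 7 days. On the log2(signal + 8) scale LTI30, at 4.17, COR47 (1.85), TIL (1.01) and 4 others were below it at 7 days. COR47, LTI30 and the lipocalin gene TIL were lower at 7 days than at 24 h (-1.28, -1.10 and -0.96, adjusted p = 0.0173, 0.0355 and 0.00916), a call made lower for 4.46% of tested probe sets. The count of 3 was 0 without 24 h replicate 2 or 7-day replicate 1 and 1 without 7-day replicate 2 or without the filter on dim probe sets.

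Genes next to the members on their chromosomes, taken as the 5 nearest on each side, gave few measurements. Of the 10 around TCF1, 2 were paired with a probe set in the annotation used and 1 was tested, AT3G55600, at -0.11 at 24 h (adjusted p = 0.794) and 0.27 at 7 days (adjusted p = 0.502). Of the 10 around BCB, 3 were so paired and were tested. The nearest of these, AT5G20220, was at -0.63 at 24 h (adjusted p = 0.108). AT5G20180, the fifth gene away, rose with 730 and 524 at 24 h, against 232 and 159 at 0 h (1.64, adjusted p = 0.000344), and was at 1.83 at 7 days (adjusted p = 0.000375), where BCB was at 0.62. It was the 1 gene of the 3 called at each of these times, when 11.8% (24 h) and 9.18% (7 days) of tested probe sets were called higher.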

How the data were processed

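The authors deposited signal intensities on a linear scale. MAS5 produced them, per the submitters' processing notes, with version and settings not given in the sources used here. Each array had a trimmed mean near 100. Signals were transformed as log2(signal + 8), with 8 being 20% of the median signal (40.9) rounded. This scale understates changes of dim genes. After 64 control probe sets were left out, 15017 of 22746 were tested, those above the 40th percentile of their array on at least 2 arrays. One limma (version 3.58.1, R 4.3.3) model of 4 group means was fitted to 8 arrays with an intensity trend. P-values are two-sided and adjusted by Benjamini-Hochberg over all tested probe sets for each of 5 comparisons, with calls at an adjusted p under 0.05. The procedure was run on simulated data with independent errors and large planted changes. That run does not bear on smaller changes or on replicates that are not independent.

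Names came from the platform's probe annotation and a RefSeq gene table (TAIR10.1), used for names and gene order. Of the probe sets, 13513 pair with 1 gene, 503 with several, and 8730 are not listed. The members and the gene lists were chosen with earlier results of these data known, and list membership comes from general knowledge of the families. The rule for named genes took the 5 genes most like each member by each of 2 measures, up to 4 called genes per list and comparison, and the nearest tested neighbours. Relatives could not be chosen by protein similarity here, so the family lists were used. Replicates are 2 arrays per group, and nothing in the labels says that they came from separate cultures: p-values may measure technical spread only, and the number of arrays limits the precision. Alternatives were other pseudocounts, scalings, filters and variance settings, a replicate block, and each array left out.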

Additional observations from a re-analysis of the deposited data

How the results depend on the processing

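No alternative turned a direction of the TCF1 or BCB differences or of the calls of named genes. TCF1 moved with the pseudocount: with 1 it was 1.55, 5.73 and 5.45 against 0 h at 1 h, 24 h and 7 days and 4.19 for 24 h against 1 h, and with 4 times the main value it was 0.34, 3.12, 2.86 and 2.77. With 1 array left out, TCF1 ranged over 0.54 to 1.14 at 1 h, 4.24 to 4.83 at 24 h and 3.96 to 4.56 at 7 days against 0 h. BCB ranged over 0.62 to 1.09, 1.30 to 1.76 and 0.39 to 0.85. Equal array medians moved the median of all tested probe sets for 24 h against 1 h from -0.08 to 0.04.

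With 1 array left out, counts of called list members ranged as follows. Shifts smaller in proportion are not listed. RCC1 genes gave 2 to 5 at 24 h and 3 to 5 for 24 h against 1 h. Monolignol genes gave 0 to 1 at 24 h, at 7 days and for 24 h against 1 h. Lignin polymerization genes gave 1 to 3 at 24 h, 0 to 3 for 24 h against 1 h and 1 to 2 for 7 days against 24 h. Blue copper genes gave 0 to 1 at 24 h, at 7 days and for 24 h against 1 h. Cold genes gave 1 to 2 at 1 h and 0 to 3 for 7 days against 24 h. Equal medians gave 0 monolignol genes for 24 h against 1 h. Without the filter there were 0 blue copper genes at 7 days and for 24 h against 1 h, and 1 cold gene for 7 days against 24 h. The replicate block gave 1 blue copper gene for 7 days against 24 h and 2 neighbours of BCB at 7 days. These causes were not tested.

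Over all tested probe sets, the alternatives gave 16 to 62 calls at 1 h (48 in the main analysis), 2689 to 4391 at 24 h (4074), 1470 to 3328 at 7 days (2989), 2041 to 4188 for 24 h against 1 h (3906) and 291 to 1644 for 7 days against 24 h (1396). With the replicate block the counts were 55, 4391, 3328, 4188 and 1644, and TCF1 stood at 4.53 and BCB at 1.53 at 24 h. For arrays of the same number, deviations correlated between groups at 0.39 (1 h and 0 h), 0.40 (24 h and 0 h) and 0.24 (24 h and 1 h). With the 7-day arrays these correlations were -0.21 (0 h), -0.03 (1 h) and -0.17 (24 h). Whether arrays of the same number have more in common than that number was not tested. Only the calls with the largest changes in each list, marker set or neighbour set and comparison were followed through the alternatives. Of these 53 calls, 28 were kept under every alternative.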
